A study of Homo sapiens with 7 samples.

Results

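PSMG1 and BRWD1 are neighbouring protein-coding genes on chromosome 21 that are transcribed in the same direction. The locus was taken as chr21:39154769-39341212 (GRCh38), which runs from 20 kb before to 20 kb after the 2 genes. PSMG1 (gene ID 8624) spans 39174769 to 39183514 and BRWD1 (gene ID 54014) spans 39184176 to 39321212, both on the minus strand, and they are 2 of 59098 genes in the RefSeq table used. The locus was chosen by the fold enrichment of the peak at the PSMG1 start, the highest of each active SCP1 list. The fold enrichment and rank of that peak are therefore given as a description and were not tested.

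The data were peak lists from chromatin immunoprecipitation sequencing (ChIP-seq) with antibody 6D7, which recognises RNA polymerase II phosphorylated on threonine 4 of its C-terminal repeat (pThr4). Nuclear lysate of HEK293 cells, an established human embryonic kidney line, was divided and incubated in vitro with wild-type SCP1, a phosphatase for serine 5 of the repeat (active SCP1, n = 3), or with its catalytically dead variant D96A (inactive SCP1, n = 3). The comparison asks where pThr4 becomes detectable once phosphate on the neighbouring serine 5 is removed. Each of the 6 libraries had its own list, no read counts were given, and the depth of each library is therefore unknown. An IgG control precipitation was not analysed here. The identity of the cells could not be checked against marker genes, because the lists hold no expression values.

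PSMG1 encodes a chaperone that pairs with PSMG2 and helps to assemble the core particle of the proteasome, the main protease of regulated protein breakdown. BRWD1 encodes a protein with WD repeats and bromodomains, modules that bind acetylated histones. RNA polymerase II carries serine 5 phosphate near gene starts, and its pThr4 form has been mapped mostly past gene ends, where transcripts are cleaved and the polymerase terminates. The end of BRWD1 lies only 725 bp upstream of the PSMG1 start (39183451, the start in the RefSeq promoter table), so that the termination zone of one gene and the promoter of the other share the same stretch of DNA.

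The 250 bases before the PSMG1 start are shown because all 6 libraries had their strongest peak of the locus over them. They cover chr21:39183452-39183701 on the minus strand (RefSeq, GRCh38.p14), and the BRWD1 promoter, chr21:39313633-39313882 on the same strand, is printed for contrast because it carried a listed peak in 1 library only. Capitals mark each GGGCGG on either strand, the letters of a GC box, which is a binding motif of SP-family factors.
PSMG1: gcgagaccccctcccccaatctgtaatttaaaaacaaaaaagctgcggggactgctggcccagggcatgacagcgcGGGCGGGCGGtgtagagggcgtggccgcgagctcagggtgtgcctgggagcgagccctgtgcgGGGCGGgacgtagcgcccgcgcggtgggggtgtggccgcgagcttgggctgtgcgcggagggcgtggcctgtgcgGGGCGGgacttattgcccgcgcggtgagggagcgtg
BRWD1: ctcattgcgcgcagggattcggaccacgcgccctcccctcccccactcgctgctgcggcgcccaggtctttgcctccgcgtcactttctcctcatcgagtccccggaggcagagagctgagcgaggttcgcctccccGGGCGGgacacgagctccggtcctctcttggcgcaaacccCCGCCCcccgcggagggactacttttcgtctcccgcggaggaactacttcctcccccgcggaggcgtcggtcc

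The PSMG1 window held 4 matches to GGGCGG, of which a pair overlap, and the BRWD1 window held 2. Of 15810 protein-coding promoters of the same length, 56% held at least 1 match and 11.1% held 4 or more. PSMG1 also held CCAAT once, as did 34.4% of promoters in at least 1 copy, and neither window held TATAAA (9.25% of promoters), CCGGAAG (11.8%), AATAAA (11.9%) or CACGTG (7.83%) on either strand. A stretch of 17 bases, cctgtgcggggcgggac, occurred at both 119 and 44 bases before the PSMG1 start, and 2.25% of promoters held a repeat at least that long. The promoters were alike in base composition, with a GC content of 70.8% and 28 CG pairs for PSMG1 and 69.6% and 29 pairs for BRWD1, against medians of 62.4% and 17 over all promoters.

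The locus held 34 peaks over the 6 lists, of 62703 listed in all. They fell at 14 separate places, once overlapping peaks were joined. Peaks of all 6 libraries met at only 2 of these places, the PSMG1 start and a stretch past the PSMG1 end. Another 10 places had peaks with active SCP1 only, 7 of them in active replicate 3 alone, and no place had peaks with inactive SCP1 only. The share of such places over the whole genome was not computed, so these counts are not read as a trait of the locus. The lists themselves differed in length, from 6700 to 36988 peaks with active SCP1 and from 1171 to 2709 with inactive SCP1, and in the lowest −log10 p-value they admitted, 3.08 to 3.79 against 4.20 or more. A place without a listed peak is one where nothing reached the cutoff of the library concerned.

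**Figure D1:**
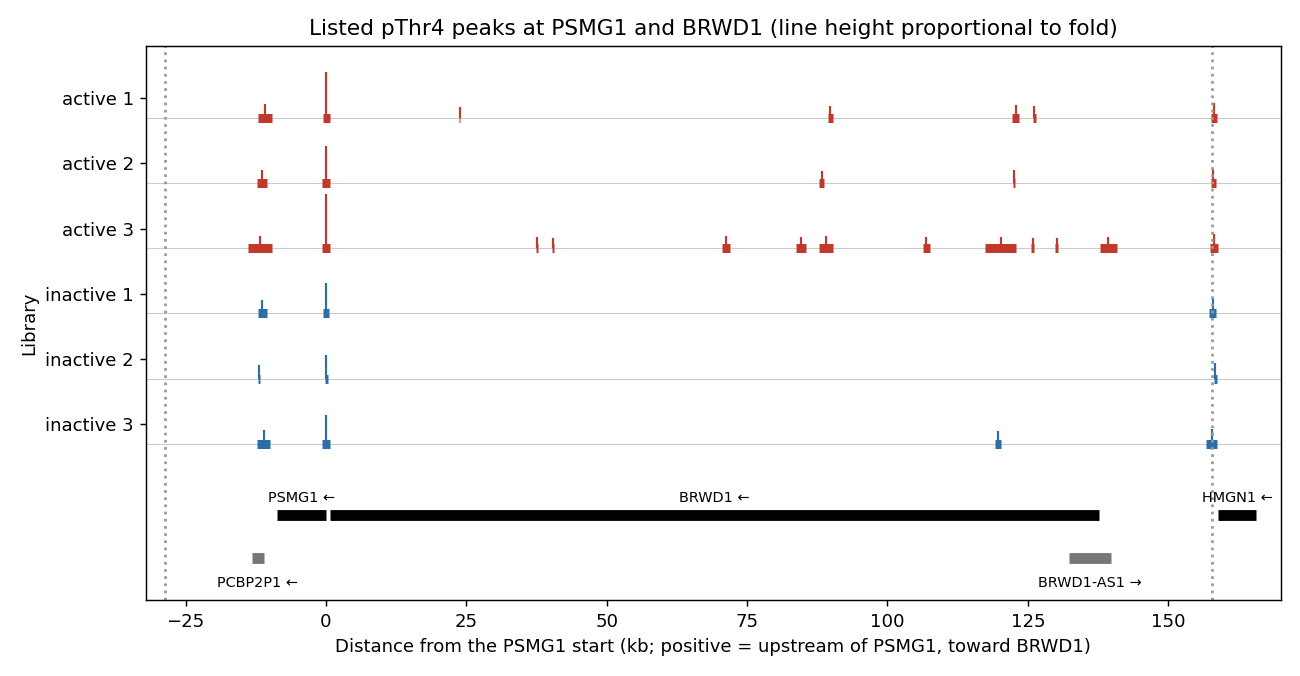
Peaks of the 6 lists at PSMG1 and BRWD1, by distance in kb from the PSMG1 start. Each row is 1 library (active SCP1 in red, inactive SCP1 in blue), horizontal bars show peak extents, vertical lines are proportional to fold enrichment, dotted lines bound the locus and black and grey bars show genes with their direction; the tallest line of every row stands at the PSMG1 start, at 10.7 to 15.5 with active and 6.92 to 8.88 with inactive SCP1.

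At the PSMG1 start a peak was present in all 6 libraries. The same peak lies within 5 kb past the BRWD1 end, and a signal of the PSMG1 start and 1 of the BRWD1 end cannot be told apart here. It is named after the PSMG1 start for its position only. Its fold enrichment, the caller's ratio of the library over its background, was 13.2, 10.7 and 15.5 in active replicates 1, 2 and 3 and 8.88, 6.92 and 8.19 in inactive replicates 1, 2 and 3. Every active value lay above every inactive value. The corresponding −log10 p-values were 40.3, 29.5 and 51.9 against 19.9, 14.6 and 17.9. Promoter windows, 1000 bp to each side of the start, had a peak in all 6 lists at 164 of 19630 protein-coding genes, a background of 0.835%.

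The rank of this peak within its own list is given as a description, since first place by fold enrichment in the active lists is what chose it. By fold enrichment it stood first among 12658, 6700 and 36988 peaks with active SCP1, and it was 4th of 2477, 9th of 1171 and 8th of 2709 with inactive SCP1. The margin to the next peak was narrow in active replicate 2, where the second value was 10.6. The second values were 10.5 in active replicate 1 and 12.3 in active replicate 3. By −log10 p-value the peak ranked 1st, 5th and 2nd in the active and 12th, 27th and 18th in the inactive lists, so the first place in all 3 active lists belongs to the fold enrichment. On chromosome 21 it had the highest fold enrichment in all 6 lists, ahead of next values of 7.18 to 8.24 with active and 5.80 to 6.41 with inactive SCP1.

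Since the depth is unknown, the scale of fold enrichment may differ from library to library, and each value was also divided by the median of its own list. This relative fold was 3.90, 3.04 and 4.98 in the active libraries, against 2.31, 1.78 and 2.13 in the inactive libraries. The groups were apart on this scale as well, and the difference of the mean log2 values was 0.92. The list medians themselves were lower with active SCP1, and over the 164 promoters with a peak in all lists the difference was above 0 in all 164, with a median of 0.40. PSMG1 had the second largest difference of the 164 on this scale. The same difference of undivided fold enrichments was 0.71 for PSMG1, again the second largest, against a median of 0.19, and was above 0 in 144 promoters. Of the 164 promoters, 61% had a relative fold and 25.6% a fold enrichment that was higher in each active than in each inactive library. PSMG1 is in both of these groups, and since the active values chose the locus nothing is read from that.

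**Figure D2:**
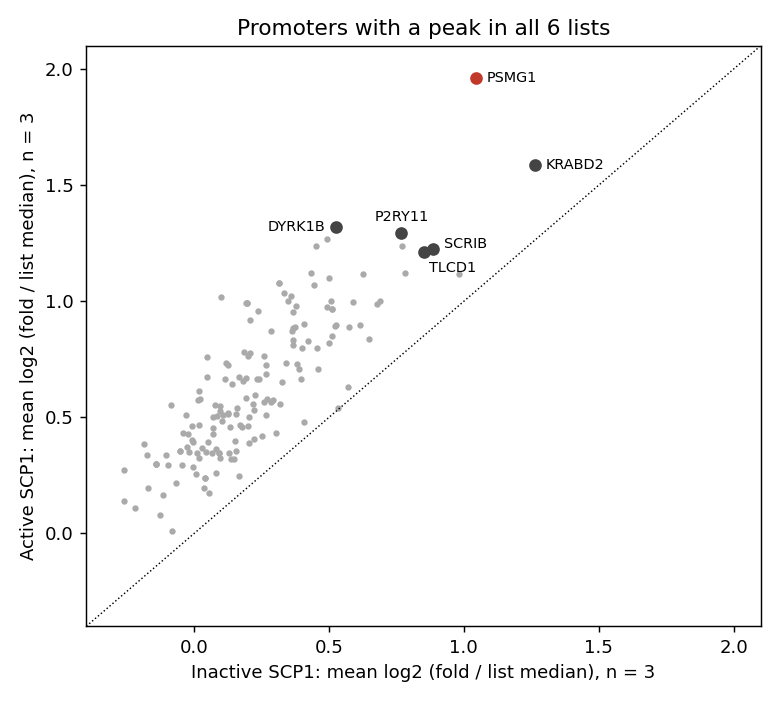
Mean log2 of the fold over the list median at the 164 protein-coding promoters with a peak in all 6 lists, inactive SCP1 on the horizontal and active SCP1 on the vertical axis (3 libraries each; dotted line, equal values). PSMG1 (red) has the highest active mean, 1.96, and an inactive mean of 1.04; all points lie above the dotted line, and the 5 promoters most like PSMG1 are named in dark grey.

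Among these promoters, the one nearest to PSMG1 by Euclidean distance of log2 relative fold over the 6 libraries was that of KRABD2, at a distance of 0.94. P2RY11, TLCD1, SCRIB and DYRK1B followed at 1.26, 1.39, 1.42 and 1.43. The distance uses the active values that chose PSMG1, so its size is not read. KRABD2 had fold enrichments of 10.5, 10.6 and 9.11 with active and 10.9, 7.20 and 10.2 with inactive SCP1, so its groups overlapped, whereas DYRK1B had 8.44, 6.76 and 10.2 against 6.74, 4.53 and 5.63, without overlap. Like PSMG1, KRABD2, SCRIB and DYRK1B have the end of a same-strand gene within 1 kb upstream of their start. P2RY11 and TLCD1 do not. Of 561 protein-coding promoters with such an upstream gene end, 60 had a peak in all 6 lists, a share of 10.7%, and of the 19069 without one, 104 did, a share of 0.545%. With active SCP1 alone, 37.6% of the 561 had a peak in all 3 lists, against 3.98% of all 19630 protein-coding promoters.

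The peak at the PSMG1 start was centred on the start in every library, with its middle between -24.5 and 92.5 bp from the start, positive values lying upstream. It was 1310, 1338 and 1488 bp wide with active SCP1 and 1030, 626 and 1318 bp wide with inactive SCP1. The mean width was 1379 bp ± 95.7 (SD, n = 3) with active SCP1, against 991 bp ± 348 (SD, n = 3). The active peaks were wider on average by 387 bp, but inactive replicate 3 exceeded active replicate 1 and the groups overlapped (two-sided exact permutation test, p = 0.2). All 6 peaks shared 626 bp, from 243 bp downstream to 382 bp upstream of the start, which were the whole of the peak in inactive replicate 2 and which include the bases printed above. Over the 164 promoters, 73.2% had a wider peak in each active than in each inactive library, and PSMG1 was not one of them.

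The 2 edges of the peak were then read separately. Both edges and the width belong to the peak whose active fold enrichment chose the locus, and the cutoffs of the lists were unequal. The called extent of a peak can follow both, so the p-values of width and edges are not read as support. Upstream, toward BRWD1, the peak reached 747, 649 and 778 bp from the PSMG1 start with active SCP1 and 527, 382 and 634 bp with inactive SCP1. Every active peak reached farther upstream than every inactive peak, by a difference of the means of 210.3 bp (exact permutation test, p = 0.1, the smallest possible with 3 against 3). The margin between the nearest libraries was small, 649 against 634 bp, and 51.8% of the 164 promoters had an upstream edge that was farther out in each active library. Only the peaks of active replicates 1 and 3 ran into BRWD1, by 23 and 54 bp. The others stopped 75 bp (active replicate 2) and 197, 342 and 90 bp (inactive replicates 1, 2 and 3) short of the BRWD1 end.

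Downstream, into PSMG1, the peak reached 562, 688 and 709 bp from the start with active SCP1 and 502, 243 and 683 bp with inactive SCP1. These groups overlapped, with a difference of the means of 177 bp (exact permutation test, p = 0.2), whereas 56.1% of the 164 promoters had a downstream edge farther out in each active library. The short edge of inactive replicate 2 set much of this value, and without that library the difference was 60.5 bp. No listed peak covered the remaining interior of PSMG1 in any library.

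**Figure D3:**
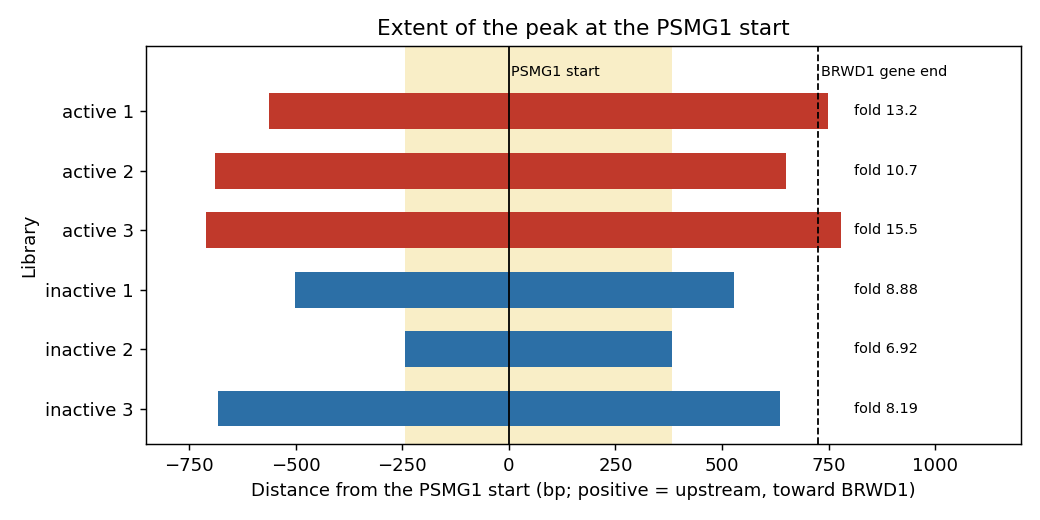
Extent of the peak at the PSMG1 start in each library, in bp from the start (active SCP1 in red, inactive SCP1 in blue; positive values lie upstream). The shaded 626 bp are common to all 6 peaks, the dashed line marks the BRWD1 end at 725 bp, and the printed numbers are fold enrichments; 2 of the active peaks cross the dashed line.

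A second peak was listed in all 6 libraries past the end of PSMG1. Its fold enrichment was 3.93, 3.84 and 3.57 in active replicates 1, 2 and 3 and 3.75, 3.98 and 3.82 in inactive replicates 1, 2 and 3. These values interleaved between the groups, with means of 3.78 ± 0.188 (SD, n = 3) and 3.85 ± 0.117 (SD, n = 3). Relative to the list medians they were 1.16, 1.09 and 1.15 with active and 0.975, 1.02 and 0.994 with inactive SCP1. On this scale every active value lay above every inactive value. The list medians were 3.11 to 3.53 with active and 3.84 to 3.88 with inactive SCP1, and the share of past-end peaks apart in this way was not computed. By rank the peak was near the middle of the inactive lists, at 1485 of 2477, 503 of 1171 and 1418 of 2709. In the active lists it was in the upper part, at 1878 of 12658, 1714 of 6700 and 5359 of 36988. A peak within 5 kb past the gene end was present in all 6 lists at 4.46% of protein-coding genes.

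This past-end peak varied far more in width than in fold enrichment. It was 2487, 1728 and 4294 bp wide with active SCP1 and 1437, 295 and 2406 bp with inactive SCP1, and the groups overlapped. It began 925 to 1788 bp past the PSMG1 end with active and 1236 to 3085 bp past it with inactive SCP1, and it ended 3340 to 5218 bp past it. The 256 bp shared by all 6 peaks, 39171429 to 39171684, lie inside PCBP2P1 (39170283 to 39172368), a pseudogene copied from PCBP2. Reads from PCBP2 and its copy may not be fully separable. PCBP2 itself, on chromosome 12, had 4, 3 and 5 peaks in active replicates 1, 2 and 3 and none in the inactive lists, unlike the peak over its copy. The part of shared reads in the past-end peak was not tested.

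The start peak and the past-end peak of PSMG1 can be compared within each list, where the scale is the same for both. The start exceeded the past-end peak by 3.36-fold, 2.80-fold and 4.34-fold with active SCP1 and by 2.37-fold, 1.74-fold and 2.14-fold with inactive SCP1. The ratio was higher in every active than in every inactive library. The past-end fold enrichments interleaved between the groups, but divided by the list medians they did not overlap. A promoter peak and a peak within 5 kb past the end were both present in all 6 lists at 28 protein-coding genes, or 0.143%, and at 11 of these they were separate peaks. In 27.3% of them the ratio was higher in each active library, and the median difference of mean log2 ratios was 0.29, against 0.74 for PSMG1, the largest of the 11. The active start value chose the locus, so these ratios are a description.

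**Figure D4:**
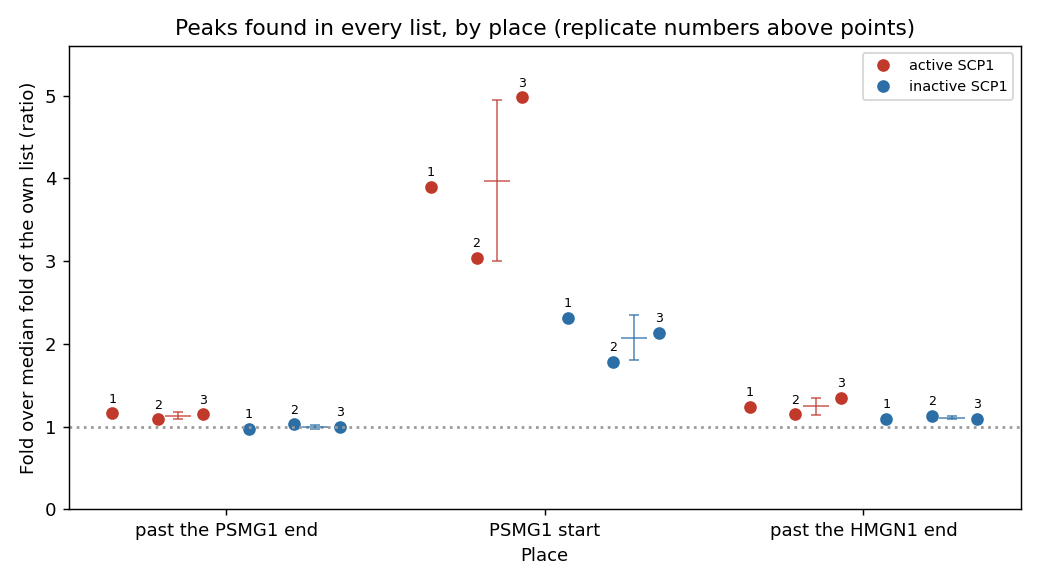
Fold enrichment over the median of the own list for the peaks past the PSMG1 end, at the PSMG1 start and past the HMGN1 end, in 3 active (red) and 3 inactive (blue) SCP1 libraries (points; bars, mean ± SD, n = 3; dotted line, the list median). At the PSMG1 start the active values of 3.04 to 4.98 lie above the inactive values of 1.78 to 2.31. Past the PSMG1 end the relative values are 1.09 to 1.16 with active against 0.975 to 1.02 with inactive SCP1, but the undivided fold enrichments interleave. Past the HMGN1 end they are 1.15 to 1.34 against 1.09 to 1.13, but the undivided fold enrichments are lower with active SCP1. The list medians, by which the values are divided, are 3.11 to 3.53 with active and 3.84 to 3.88 with inactive SCP1.

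One more recurrent peak lay at the edge of the locus. HMGN1, which encodes a nucleosome-binding protein, ends at 39342315 on the minus strand, 1103 bp outside the locus, and a peak lay past this end in all 6 libraries. In 5 of them it reached into the locus by 136 to 993 bp, and in inactive replicate 2 it began just outside, at 39341536. Its fold enrichment was 4.20, 4.05 and 4.18 with active and 4.21, 4.38 and 4.21 with inactive SCP1. No active value exceeded any inactive value, by small margins. On the relative scale the order was the reverse, at 1.24, 1.15 and 1.34 against 1.10, 1.13 and 1.09.

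Outside the PSMG1 promoter window the locus held 6, 4 and 12 peaks with active SCP1 and 2, 1 and 3 peaks with inactive SCP1. The groups did not overlap and their means differed by 5.33 peaks (exact permutation test, p = 0.1, the smallest possible). As a share of the own list, the peaks of the whole locus made up 0.0351% to 0.0746% of the active and 0.121% to 0.171% of the inactive lists. The larger number with active SCP1 thus went with longer lists. With each list reduced to its 1171 strongest peaks by −log10 p-value the direction turned, to 0 peaks in every active and 1 in every inactive library. In inactive replicates 1 and 3 the peak kept was the one past the HMGN1 end. In inactive replicate 2, whose list was not cut, it was the one past the PSMG1 end. The −log10 p-values past the HMGN1 end were 5.71 to 6.17 with active and 5.87 to 6.56 with inactive SCP1. The turn is therefore not read as a difference at the gene pair. When peaks had to reach 6 in −log10 p-value, active replicates 1, 2 and 3 kept 1, 0 and 1 and each inactive library kept 0, so that the groups overlapped (exact permutation test, p = 0.4). The peaks kept were those past the HMGN1 end, at 6.17 and 6.16 in active replicates 1 and 3. In inactive replicate 2 the HMGN1 peak reached 6.56 but began outside the locus, so it was not counted. Of all listed peaks outside the PSMG1 promoter window, none in inactive replicates 1 and 2 lay in BRWD1.

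Inside BRWD1, away from the PSMG1 promoter window, 4, 2 and 9 peaks were listed in active replicates 1, 2 and 3 and 0, 0 and 1 in inactive replicates 1, 2 and 3. They covered 2965, 1130 and 14200 bp with active SCP1, and 1000 bp in inactive replicate 3. The covered shares were 2.17%, 0.826% and 10.4% in the active libraries and 0%, 0% and 0.731% with inactive SCP1. The active libraries averaged 4.46% ± 5.17 (SD, n = 3), the inactive libraries 0.244% ± 0.422 (SD, n = 3). They lay 4.22 percentage points apart, and by an exact permutation test p was 0.1, the smallest possible. Active replicate 3, which had the longest list, set most of it, and without that library the difference was 1.25 percentage points. Active replicate 2 lay just above inactive replicate 3. Among protein-coding genes, 14.3% were covered more and 0.00509% were covered less in each active than in each inactive library, and of the 3339 genes of at least 100 kb 11% were covered more.

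These peaks were weak. Their 16 fold enrichments ranged from 2.99 to 3.67, which is 0.931 to 1.15 times the median of the own list, and their −log10 p-values from 3.45 to 5.09. None remained when a −log10 p-value of at least 6 was required of every list, or among the 1171 strongest peaks. Of the genes of at least 100 kb, 69.1%, 84.1% and 31.8% had no covered base in active replicates 1, 2 and 3, and 95.6%, 98.6% and 95.5% had none in inactive replicates 1, 2 and 3, so that any listed peak passes most of them in 5 of the 6 lists. BRWD1 was covered more than 95.6%, 95.3% and 97.5% of these genes with active SCP1 and more than 98.5% in inactive replicate 3, and it was itself uncovered in inactive replicates 1 and 2.

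**Figure D5:**
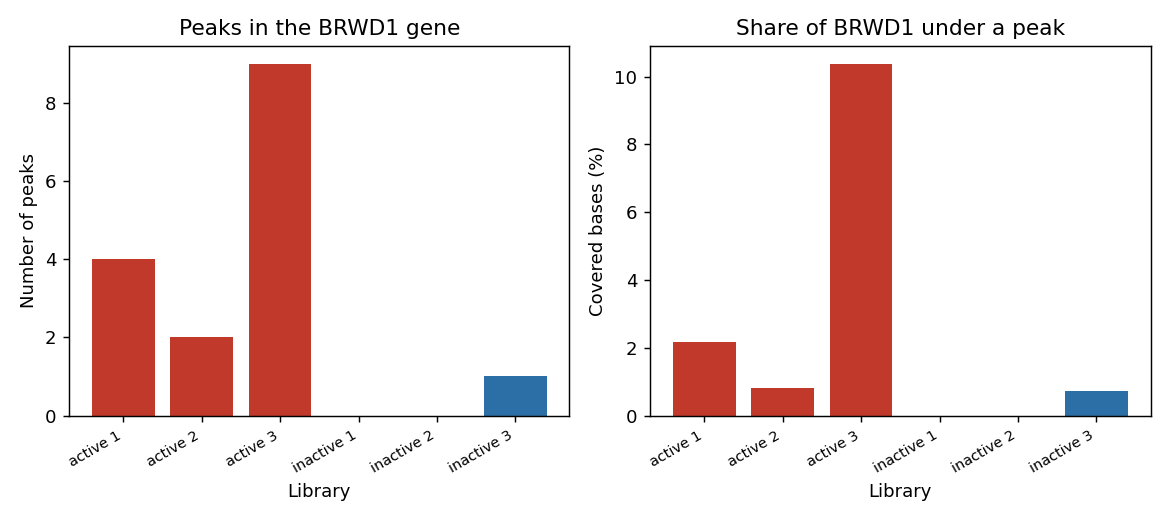
Number of peaks in BRWD1 outside the PSMG1 promoter window (left) and the percentage of its bases under a peak (right) in each library, with active SCP1 in red and inactive SCP1 in blue. Active replicate 3 has 9 peaks and 10.4% coverage, the other active libraries have 4 and 2 peaks, and 1 inactive library has a single peak.

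The BRWD1 peaks of different active libraries met at few places. One place, 39271307 to 39273746, lay 39886 to 42325 bp into the gene from its start at 39313632 and was listed in all 3 active libraries but in none of the inactive ones, with fold enrichments of 3.28, 3.34 and 3.58. The active replicates 1 and 2 did not overlap each other there and were joined by the longer peak of active replicate 3. A further place, 39300878 to 39306959, within 12754 bp of the start, had peaks of 3.56, 3.67 and 3.18 in the active libraries and 3.66 in inactive replicate 3, where the inactive peak overlapped only that of active replicate 3. One more, 3739 to 4550 bp into the gene, had peaks in active replicates 1 and 3 only. The remaining 7 places in BRWD1 had a peak in a single library, 6 of them in active replicate 3. Exons and introns of BRWD1 were not told apart here.

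At the BRWD1 start in the promoter table, 39313632, a peak was listed only in active replicate 3, from 39313319 to 39313881, which spans that start. Its fold enrichment was 3.03, below the median of its list, and it ranked 22587 of 36988. Its −log10 p-value of 4.26 was above the lowest values of the other active lists, 3.50 and 3.79. BRWD1-AS2, a long noncoding RNA gene that starts 275 bp upstream on the opposite strand, had no peak. BRWD1-AS1, another antisense gene, had 1 peak, in active replicate 3, at 39321253 to 39324320 with a fold enrichment of 3.31. The BRWD1 gene span reaches 39321212, which is 7580 bp upstream of the start used. The BRWD1-AS1 peak begins just beyond that end. The pseudogenes TIMM9P2 and METTL21AP1 inside BRWD1 had none.

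Genes related to the pair by function were too few for their counts to be set apart from the background. Of 9 proteasome assembly chaperone genes, PSMG1 alone had a promoter peak in all 3 active or all 3 inactive libraries, where 3.98% and 0.846% of all promoter windows did. PSMG2, the partner of PSMG1, had a promoter peak in active replicate 3 only, with a fold enrichment of 3.39, and peaks of 3.998, 3.63 and 4.82 past its end with active SCP1 and of 3.80 in inactive replicate 1. PSMG4, another assembly chaperone, had past-end peaks of 3.91, 3.74 and 4.52 with active SCP1 and of 3.68 and 4.602 in inactive replicates 1 and 3. POMP, PSMD5, PSMD10 and PAAF1 had no peak at the promoter or past the end in any list, and PSMG3 and PSMD9 had 1 past-end peak each. Of the BRWD family, BRWD3 had neither kind of peak and PHIP had 1 past-end peak, in active replicate 3. BRWD1 had a promoter peak in active replicate 3 only and a past-end peak in all 6 lists, as had 4.46% of protein-coding genes. The past-end peak of BRWD1 is the same peak as that at the PSMG1 start.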

How the data were processed

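The submitters' processing notes name FastQC, cutadapt 4.6 and Bowtie2 2.5.2 and the build hg38. The authors deposited 1 broad-peak list per library, in the layout of the MACS caller, whose version, control and read filters are not given in the sources used here. Each deposited peak has a fold enrichment (a ratio of library over background), the −log10 of its p-value and of its q-value, and a score, the last not used. The lowest −log10 q-value was just above 1 in each list, as a q cutoff of 0.1 leaves.

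Genes came from the RefSeq table of GRCh38.p14. Starts were taken from the RefSeq promoter table for 15812 of 19974 protein-coding genes and otherwise from the gene end given by its GENCODE strand (19630 in all). PSMG1 and BRWD1 both matched the promoter table. Overlap meant at least 1 bp. Groups were compared with two-sided exact permutation tests over 20 assignments, which cannot give p under 0.1 and so cannot pass 0.05. Where several peaks overlapped a window, the one with the largest overlap was used. Named genes were the pair, all genes in the locus, the 5 nearest promoters and 2 lists of related genes. Others, HMGN1 and PCBP2 among them, were chosen after their values were seen. Members and lists were chosen with earlier results of these data known. Python 3.11.15, pandas 2.3.3 and scipy 1.17.1 were used, and the overlap functions were tested on simulated data. Replicates were labelled biological.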

Additional observations from a re-analysis of the deposited data

How the results depend on the processing

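With each list reduced to its 1171 strongest peaks, the difference in peaks outside the PSMG1 window reversed to -1, the difference in BRWD1 coverage was 0, as it was when each list had to reach 6 in −log10 p-value, and the log2 difference of relative fold was 0.56. Fewer weak peaks remain in both forms by construction. The peaks still counted outside the PSMG1 window lay past the HMGN1 end, or past the PSMG1 end in inactive replicate 2. The lowest rank of the PSMG1 peak was 9 by fold enrichment and 27 by −log10 p-value. Leaving out 1 library at a time gave 3 to 7 for the peak number, 1.25 to 6.03 percentage points for BRWD1 coverage, 204.7 to 550.7 bp for the width, 144.2 to 270.2 bp for the upstream and 60.5 to 280.5 bp for the downstream edge. Without inactive replicate 2 the width difference was 204.7 bp. Within replicates 1 and 2, whose peak names share a number, the differences were 3.5 peaks, 1.50 percentage points, 496 bp, 243.5 bp and 252.5 bp. The peak number differed by 0.667 when each list had to reach 6 in −log10 p-value and by 2.33 when each had to reach 2 in −log10 q-value, where BRWD1 coverage differed by 1.29 percentage points with overlapping groups. No test here can pass 0.05, and several alternatives leave the PSMG1 peak as it is by construction, so p-values say nothing of stability.

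With a replicate block the differences were 5.33 peaks, 4.22 percentage points, 387 bp, 210.3 bp and 177 bp, as without it, and the two-sided exact sign-flip test gave p = 0.25 for all 5 tested values, the smallest possible with 3 pairs. Deviations of same-numbered libraries from their group means correlated with r = 0.10, -0.056 and 0.068 over 164 promoters, and the design describes matched aliquots without saying that the number marks a match, so the numbers were not taken to pair the libraries, and not every library correlated best with its own number. Ranking by −log10 p-value and a PSMG1 start at the end of its gene span, which changed no call, were chosen after seeing the data. The BRWD1 start was not varied. Depth is unknown, so a peak missing from a list cannot be told from one below its cutoff.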

Other observations

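Around the locus, 12 protein-coding genes lay within 1 Mb on either side, among them the transcription factor genes ETS2 and ERG and the cell adhesion gene DSCAM. None had a promoter peak in any of the 6 lists. HMGN1 was the only one with a peak within 5 kb past its end in all 6, and 9 had none there in any list. Over all protein-coding genes, 3.98% had a promoter peak in all 3 active lists, 0.835% had one in all 6 and 4.46% had a past-end peak in all 6, so the counts over 12 genes are near the background. Toward lower coordinates, the nearest peak outside the locus ended at 39153556 in active replicate 3, at 39026354 in active replicate 1 and at 37525014 in active replicate 2. In inactive replicates 1, 2 and 3 it ended at 37221500, 36719526 and 37221591.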
